A study of Mus musculus with 15 samples.

Results

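The transcripts described here are those of the mitochondrial genome: every row of the deposited count tables whose gene name starts with MT-. The rule took 37 of 56967 rows with a unique name, namely 13 mRNAs, 2 rRNAs and 22 tRNAs, and used no measured value. They were counted in 15 poly(A)-selected RNA-seq libraries labelled MDA-MB-468, a human breast carcinoma line. There were 5 groups of 3 libraries: a control hairpin (NC), shSHCBP1_1 and shSHCBP1_2 (hairpins labelled for SHCBP1, a SHC-binding adaptor of dividing cells), and shTMEM45A_1 and shTMEM45A_2 (hairpins labelled for TMEM45A, a transmembrane protein). No group was left without a hairpin. The labels give neither a clone nor a separate culture for each library, so p-values weigh differences only against the scatter of these libraries, which could be technical. NC and both shSHCBP1 groups stood in a single table and the shTMEM45A libraries alone in another, so in comparing shTMEM45A with NC the hairpin's target and the table it was counted in cannot be told apart. The shTMEM45A columns carried the numbers 2 and 4. Columns numbered 2 were matched to the label shTMEM45A_2 and are called set 2. Columns numbered 4 were left to shTMEM45A_1 by elimination and are called set 4, with no tie to a replicate number.

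The mitochondrial genome is a small circle read from both strands into long transcripts that cover many genes. The tRNAs lie between the mRNAs and rRNAs, and cutting the tRNAs out frees the other RNAs. Neighbouring genes are thus made together, while cutting, tailing and decay act on each RNA separately. Most of the mRNAs receive a short poly(A) tail. MT-ND6, read from the light strand with 8 of the tRNAs, is the known exception. The 13 mRNAs encode core subunits of respiratory complexes I, III and IV and of ATP synthase (complex V), and all other subunits of these complexes come from the nucleus. MT-RNR1 and MT-RNR2 are the rRNAs of the small and large mitochondrial ribosomal subunits.

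Libraries held 13780294 to 16484000 counts, of which 488725 to 635815 were mitochondrial. The labels name mouse as organism and a mouse build while the tables carry human gene symbols, so no coordinate, length or sequence was used. Levels are in CPM (counts scaled to a common library size) after TMM scaling, are not per length, and are compared only within a gene. RNA was captured on oligo-dT, primed at random and size-selected to fragments longer than a tRNA. A count at a tRNA row therefore need not come from a mature tRNA. The kit does not mark strand, so reads of MT-ND6 and MT-ND5, which adjoin on opposite strands, could not be assigned by strand. Nor could reads at a light-strand tRNA row be told from reads of the opposite strand. MT-ATP8 and MT-ATP6, and MT-ND4L and MT-ND4, overlap on a shared mRNA, where strand does not separate reads. In the check of the labels, SHCBP1 was at 44.03 ± 2.53 CPM (SD, n = 3) in NC, 47.05 ± 1.24 in shSHCBP1_1 (edgeR adjusted p = 0.412) and 44.2 ± 1.11 in shSHCBP1_2 (adjusted p = 0.962). The targeted gene was therefore not lower in the libraries labelled shSHCBP1, and no direction below is read as an effect of losing SHCBP1. TMEM45A fell from the NC level of 26.6 ± 2.08 CPM to 17.8 ± 1.86 (set 4) and 19.4 ± 0.760 (set 2), log2 differences of -0.58 and -0.46 (SE 0.10 and 0.10, adjusted p = 8.8e-06 and 0.00018). Of 16 basal and epithelial markers of the labelled line, 8 had counts enough to test, and KRT5, KRT6A and KRT6B were at 0 counts in every library. Summed over the 16 markers, levels were 159.6 to 165 CPM in NC, 174 to 185 in both shSHCBP1 groups together and 325 to 375 in both shTMEM45A sets together. Of the 8 markers tested, 5 were higher and 2 lower in set 4 and 6 and 2 in set 2, where 74.4% and 75.9% of all genes passed. The part of this marker difference in the mitochondrial results was not tested. In bulk libraries, fewer cells of a type and less RNA per cell cannot be told apart.

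The mitochondrial mRNAs took a like share of each library in 4 of the 5 groups. As a mean ± SD over 3 libraries, they were 2.72% ± 0.0325 of all counts in NC, 2.71% ± 0.00930 in shSHCBP1_1, 2.78% ± 0.0327 in shSHCBP1_2, 2.67% ± 0.127 in set 4 and 3.09% ± 0.0941 in set 2. The 3 libraries of set 2 (2.98 to 3.14%) lay above all others, while those of set 4 (2.56 to 2.81%) enclosed the NC range of 2.68 to 2.74%. The rRNAs were 0.803% ± 0.0233 of counts in NC, 0.805% ± 0.0106 and 0.785% ± 0.0194 in the shSHCBP1 groups, 0.712% ± 0.0313 in set 4 and 0.769% ± 0.0523 in set 2. Poly(A) selection had left these rRNAs in every library, and their share of counts in set 4 was below that in each NC library. The tRNA rows together held 0.0234% ± 0.000812 in NC and 0.0397% ± 0.00189 in set 2, without overlap. In set 4 they held 0.0277% ± 0.00543, where the library in column 3, at 0.0214%, lay under the NC libraries and the other two well above. After TMM scaling the order differed: the mRNAs summed to 26908 ± 307 CPM in NC, 24276 ± 85.05 and 24554 ± 273 in the shSHCBP1 groups, all below NC, and 30188 ± 1346 and 34853 ± 827 in sets 4 and 2, all above. The rRNAs then summed to 7949 ± 237 CPM in NC, 8046 ± 349 in set 4, where the libraries overlapped, and 8676 ± 500.4 in set 2. How these sums in set 4 stood to NC thus depended on the scaling. So did the mRNA sum of shSHCBP1_2: its shares of counts (2.75 to 2.82%) lay above every NC library and its scaled sums below. In shSHCBP1_1 the mRNA shares (2.70 to 2.72%) lay within the NC range, and the scaled sums below it. The rRNA shares of both shSHCBP1 groups overlapped NC, while their scaled rRNA sums (7221 ± 91.1 and 6928 ± 168 CPM) lay below every NC library. These sums were chosen members added up and carry no test.

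**Figure D1:**
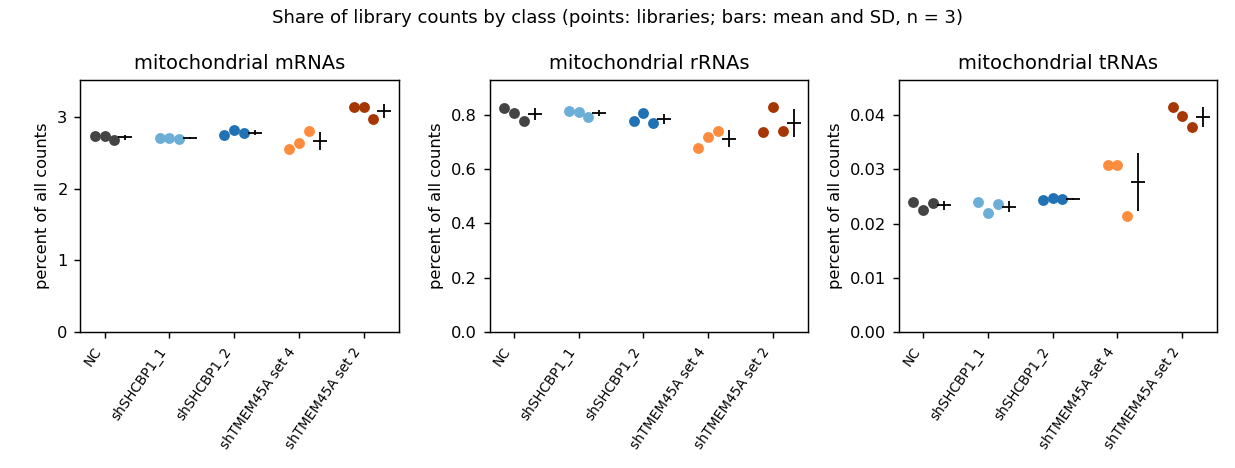
Percent of all counts in each library (vertical axis, from 0) that fell on mitochondrial mRNAs, rRNAs and tRNAs, by group; points are the 15 libraries and crosses the mean and SD over 3. The mRNA share of set 2 (mean 3.09%) lies above NC (2.72%), and 1 library of set 4 stands low among the tRNAs.

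Single mRNAs differed widely and in opposite directions in the shTMEM45A sets. Against NC, 8 of the 13 mRNAs were higher and 5 lower in set 4, and likewise 8 and 5 in set 2 (edgeR quasi-likelihood test, Benjamini-Hochberg adjusted p under 0.05 over 19051 genes). The background was high: 74.4% of all genes tested passed in set 4, 35.6% upward and 38.9% downward, and 75.9% in set 2, 36.1% upward and 39.8% downward. With most genes called, a call by itself says little about these transcripts, and the sizes are given instead. The median log2 difference over the 13 mRNAs was 0.36 in set 4 and 0.61 in set 2, beside -0.03 and -0.04 over all genes. In each set 6 of the 13 differed more than 2-fold: MT-CO2, MT-CO3, MT-ND3 and MT-ATP8 were higher, and MT-ND4L and MT-ND5 lower. How many of all genes did so was not counted, so this number is not read as a trait of these transcripts. In genome order the directions came in runs: MT-ND1 and MT-ND2 higher, MT-CO1 lower, the 5 genes from MT-CO2 to MT-ND3 higher, the 4 from MT-ND4L to MT-ND6 lower, and MT-CYB higher. Both sets were set against the same NC libraries, so their values are given side by side and not as support for each other.

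**Figure D2:**
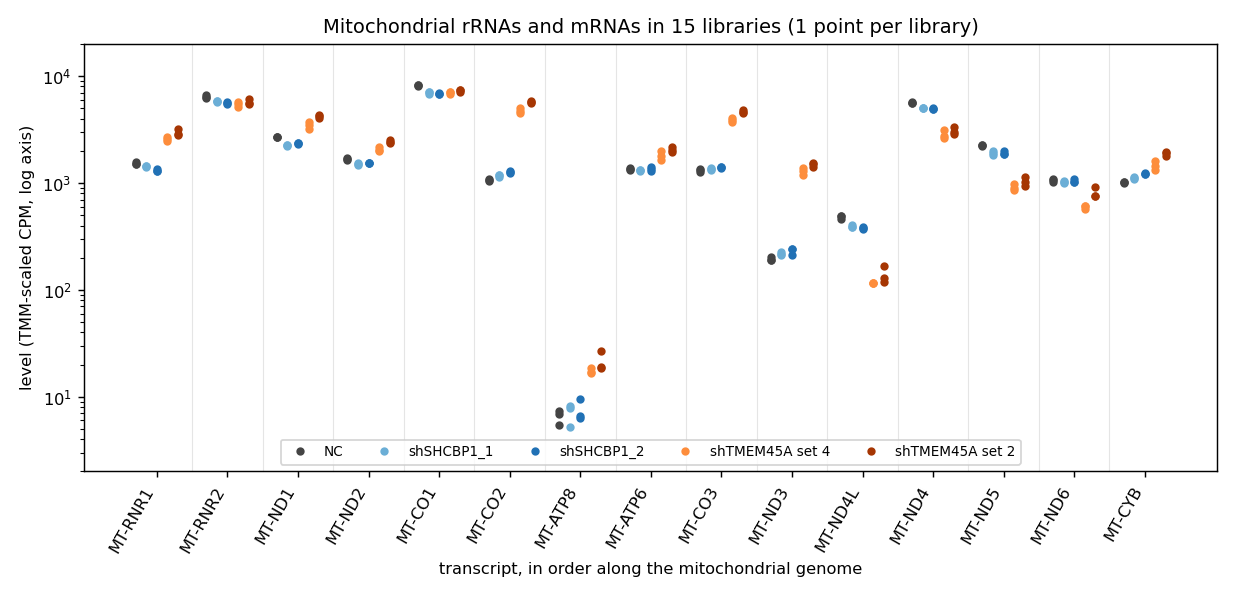
Level of each mitochondrial rRNA and mRNA (TMM-scaled CPM, log axis) in genome order, with 1 point for each of the 15 libraries, coloured by group. MT-CO2, MT-CO3 and MT-ND3 of both shTMEM45A sets stand far above NC and MT-ND4L, MT-ND4 and MT-ND5 below, while the points of the shSHCBP1 groups stay near those of NC.

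The cytochrome c oxidase (complex IV) mRNAs split. MT-CO2, which encodes the subunit that takes electrons from cytochrome c, was at 1081, 1062 and 1047 CPM in the NC libraries, 4503, 4675 and 5022 in set 4 and 5561, 5890.0 and 5742 in set 2. Every shTMEM45A library was thus above every NC library, by 4.45-fold in set 4 (log2 2.15, SE 0.04, adjusted p = 1.5e-28) and 5.39-fold in set 2 (log2 2.43, SE 0.04, adjusted p = 6.0e-30). MT-CO3, a further core subunit, was at 1321, 1365 and 1268 CPM in NC, 3757, 3914 and 4034 in set 4 and 4625, 4822 and 4552 in set 2. It too rose without overlap, 2.96-fold (log2 1.57, SE 0.04, adjusted p = 1.2e-25) and 3.54-fold (log2 1.82, SE 0.04, adjusted p = 3.2e-27). MT-CO1, the catalytic subunit and the gene just before MT-CO2, was at 8227, 8180.3 and 8039.7 CPM in NC, 7081, 7087 and 6758 in set 4 and 7416, 7397 and 7120.2 in set 2. It was lower in every shTMEM45A library, with log2 differences of -0.22 and -0.16 (SE 0.03 and 0.03, adjusted p = 2.4e-08 and 1.0e-05). The counts of MT-CO1 relative to MT-CO2, a ratio chosen after the values were seen, were 7.66 ± 0.0488 in NC, 1.48 ± 0.118 in set 4 and 1.28 ± 0.0502 in set 2.

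Among the 7 complex I mRNAs, which encode the membrane arm of NADH dehydrogenase, 3 were higher and 4 lower in both sets. MT-ND3 showed the widest difference of any mitochondrial mRNA: 204, 191 and 190.3 CPM in NC, 1198, 1302 and 1395 in set 4 and 1525, 1424 and 1521 in set 2. The groups did not overlap, and the fold was 6.65 in set 4 (log2 2.73, SE 0.05, adjusted p = 5.0e-27) and 7.64 in set 2 (log2 2.93, SE 0.05, adjusted p = 8.0e-28). MT-ND4L, the gene after MT-ND3 with only MT-TR between them, moved the other way: 488, 465 and 493 CPM in NC, 117, 116 and 116 in set 4 and 168, 129 and 119 in set 2. Its fall was 4.14-fold (log2 -2.05, SE 0.07, adjusted p = 2.9e-21) and 3.48-fold (log2 -1.80, SE 0.07, adjusted p = 4.0e-20), and 1 library of set 2 stood above the other two. MT-ND4, a proton-pumping subunit made on the same mRNA as MT-ND4L, was at 5702, 5635 and 5590.2 CPM in NC, 2650.0, 2778 and 3130.4 in set 4 and 3337, 2997 and 2857 in set 2. It fell by log2 -0.98 and -0.88 (SE 0.05 and 0.05, adjusted p = 3.2e-18 and 4.1e-17). MT-ND5, the pumping subunit at the far end of the arm, was at 2286, 2237 and 2263 CPM in NC, 863, 904 and 972 in set 4 and 1137, 1020.3 and 939 in set 2. These were falls of log2 -1.31 and -1.13 (SE 0.05 and 0.05, adjusted p = 2.0e-20 and 5.3e-19), with no overlap. The light-strand mRNA MT-ND6 was at 1095, 1068 and 1012 CPM in NC, 568, 611 and 603 in set 4 and 912, 758 and 748 in set 2. It was lower in both, more so in set 4 (log2 -0.83, SE 0.05, adjusted p = 8.9e-15) than in set 2 (log2 -0.39, SE 0.05, adjusted p = 9.6e-08). MT-ND1, which helps form the quinone site, rose from 2699 ± 3.58 CPM (SD, n = 3) to 3453 ± 261 (set 4) and 4211 ± 134 in set 2 (log2 0.36 and 0.64, SE 0.04 and 0.04, adjusted p = 1.1e-09 and 1.3e-15). MT-ND2, a pumping subunit, rose from 1669.6 ± 37.2 CPM to 2067 ± 112 and 2445 ± 95.6 (log2 0.31 and 0.55, adjusted p = 1.2e-08 and 2.7e-14).

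MT-CYB, cytochrome b and the only complex III subunit of this genome, was at 1028, 997 and 1016 CPM in NC, 1309, 1434 and 1604 in set 4 and 1942, 1896 and 1789 in set 2. It rose by log2 0.52 and 0.89 (SE 0.05 and 0.05, adjusted p = 3.2e-11 and 7.4e-17), and the 3 groups did not overlap one another. MT-ATP6, the ATP synthase subunit that lines the proton channel, rose from the NC level of 1349 ± 32.2 CPM to 1816 ± 183 (set 4) and 2061 ± 117 (set 2), by log2 0.43 and 0.61 (SE 0.05 and 0.05, adjusted p = 3.8e-09 and 1.5e-12). MT-ATP8, the small subunit whose reading frame overlaps MT-ATP6, was at 7.41, 6.85 and 5.38 CPM in NC, 17.1, 18.6 and 16.8 in set 4 and 26.99, 18.4 and 19.1 in set 2. It rose by log2 1.42 and 1.71 (SE 0.18 and 0.18, adjusted p = 2.8e-08 and 4.1e-10), on few counts: 107, 98 and 78 in the NC libraries.

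The rRNAs, neighbours made from the same transcripts, went opposite ways. MT-RNR1 was at 1576, 1518 and 1514 CPM in NC, 2493, 2680.0 and 2588 in set 4 and 2831, 3177 and 2849.7 in set 2. It was higher without overlap, by log2 0.75 and 0.94 (SE 0.04 and 0.04, adjusted p = 6.5e-17 and 2.1e-19). MT-RNR2 was at 6611, 6431 and 6198 CPM in NC, 5159, 5489.6 and 5729 in set 4 and 5509, 6074 and 5587 in set 2. It was slightly lower, by log2 -0.23 and -0.16 (SE 0.04 and 0.04, adjusted p = 1.6e-06 and 0.00020). The counts of MT-RNR2 relative to MT-RNR1, which no scaling between libraries can alter, were 4.18 ± 0.0729 in NC, 2.11 ± 0.0898 in set 4 and 1.94 ± 0.0248 in set 2.

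**Figure D3:**
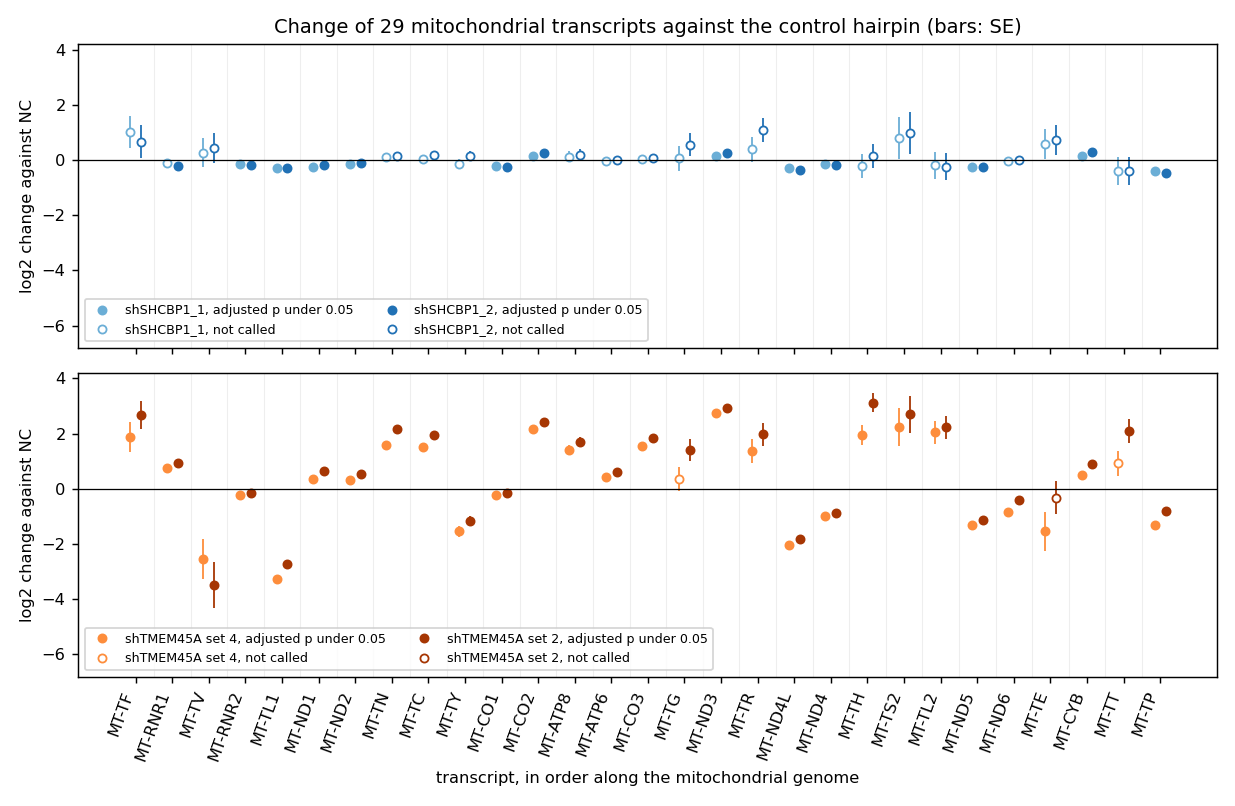
Log2 difference from NC (vertical axis) of the 29 mitochondrial transcripts tested, in genome order, with bars of 1 SE; the upper panel holds both shSHCBP1 groups and the lower both shTMEM45A sets, and filled points passed an adjusted p of 0.05. In the lower panel the points alternate in runs above and below 0 up to 3.13 (MT-TH, set 2), and in the upper panel the called points lie between -0.46 (MT-TP) and 0.28 (MT-CYB), both in shSHCBP1_2. MT-TF, MT-TS2, MT-TE and MT-TV are plotted although they passed the filter on low counts through a single table, which bears on their points in the lower panel.

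Of the 22 tRNA rows, 14 passed the filter on low counts, which asks for 0.696 CPM before TMM scaling in at least 3 libraries. MT-TF and MT-TS2 passed only through the shTMEM45A libraries and MT-TE and MT-TV only through the table with NC, so the filter itself bears on their differences between tables and these 4 are given by counts alone. The counts of calls over the tRNAs describe those tested and support nothing. With the 4 rows that passed through a single table counted in, 7 were higher and 5 lower in set 4, and 9 and 4 in set 2. Of all genes, 74.4% and 75.9% passed there. The deepest rows again showed neighbours that differed. MT-TL1, the leucine tRNA that closes the rRNA unit, was at 42.9, 43.8 and 44.2 CPM in NC, 5.27, 4.54 and 3.73 in set 4 and 6.09, 7.102 and 6.38 in set 2. No library overlapped, and the falls were 9.602-fold (log2 -3.26, SE 0.11, adjusted p = 2.0e-21) and 6.67-fold (log2 -2.74, SE 0.11, adjusted p = 2.6e-20). The counts of MT-TL1 relative to MT-RNR2 just before it, also a ratio chosen after the values were seen, were 0.00681 ± 0.000318 in NC, 0.000834 ± 0.000185 in set 4 and 0.00114 ± 3.17e-05 in set 2. Within the light-strand cluster between MT-ND2 and MT-CO1, the rows of the asparagine and cysteine tRNAs rose and that of the tyrosine tRNA fell. MT-TC was at 65.4, 59.5 and 65.7 CPM in NC, 197, 208 and 138 in set 4 and 250.3, 242 and 247 in set 2 (log2 1.51 and 1.96, SE 0.10 and 0.10, adjusted p = 1.1e-14 and 1.7e-17). MT-TN was at 27.9, 22.4 and 23.05 CPM in NC, 81.6, 84.2 and 56.4 in set 4 and 117, 114 and 102 in set 2 (log2 1.60 and 2.18, SE 0.11 and 0.11, adjusted p = 6.4e-14 and 2.1e-17). MT-TY went from 14.1 ± 0.949 CPM to 4.81 ± 1.48 and 6.31 ± 2.704 (log2 -1.54 and -1.16, SE 0.20 and 0.19, adjusted p = 4.1e-08 and 2.8e-06). None of these 3 rows overlapped between either set and NC. MT-TP, the light-strand proline tRNA beside the control region, was at 78.3, 75.6 and 80.5 CPM in NC, 30.6, 32.8 and 31.6 in set 4 and 44.04, 48.3 and 42.1 in set 2. It fell by log2 -1.30 and -0.80 (SE 0.07 and 0.07, adjusted p = 3.4e-16 and 1.4e-11).

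The other 9 tested tRNA rows had at most 194 counts in any library. MT-TH, the histidine tRNA after MT-ND4, had 24, 13 and 20 counts in NC, 126, 63 and 27 in set 4 and 194, 129 and 160 in set 2. It rose in set 4 (log2 1.96, SE 0.37, adjusted p = 2.6e-05) and in set 2 (log2 3.13, SE 0.35, adjusted p = 3.0e-09), although MT-ND4 before it fell. MT-TS2, the serine tRNA after MT-TH, had 5, 3 and 2 counts in NC, 21, 23 and 3 in set 4 and 30, 27 and 8 in set 2. MT-TF, the phenylalanine tRNA at the head of the rRNA unit, had 3, 4 and 5, 15, 16 and 12, and 34, 21 and 21 in the same order. MT-TV, the valine tRNA between the rRNAs, had 11, 8 and 19 counts in NC, 3, 3 and 0 in set 4 and 0, 3 and 0 in set 2. MT-TE, the glutamate tRNA, had 15, 8 and 8, 7, 0 and 3, and 9, 12 and 3. MT-TL2, a leucine tRNA, reached the level of the filter in 1 NC library and in all 6 shTMEM45A libraries. It had 11, 8 and 7 counts in NC, 47, 35 and 23 in set 4 and 57, 26 and 36 in set 2 and was called higher in both (adjusted p = 6.3e-05 and 1.7e-05), with too few counts for a fold. The arginine tRNA MT-TR rose by log2 1.38 and 1.98. The glycine and threonine tRNAs MT-TG and MT-TT passed only in set 2 (log2 1.41 and 2.11), with 0.37 and 0.93 in set 4. MT-TT passed in set 4 too without a filter (adjusted p = 0.0151) or without the library in column 3 (adjusted p = 0.000729). The difference between sets was not past the threshold for either row (adjusted p = 0.128 and 0.0813). For MT-TT it did pass without a filter (adjusted p = 0.00367), without the library in column 1 of set 4 (adjusted p = 0.00316) and without library 2 of set 2 (adjusted p = 0.0487). The call of MT-TR in set 4 was lost without the library in column 1 (adjusted p = 0.0937). The 8 rows under the filter, MT-TA, MT-TD, MT-TI, MT-TK, MT-TM, MT-TQ, MT-TS1 and MT-TW, had at most 28 counts in any library.

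In the libraries labelled shSHCBP1 the same transcripts moved little, and not all one way. Of 29 tested, 3 were higher and 9 lower in shSHCBP1_1, where 19.9% of all genes passed (9.34% higher, 10.5% lower), and 3 were higher and 10 lower in shSHCBP1_2, where 31.1% passed (15.6% higher, 15.4% lower). No called difference reached 2-fold in either group. The 3 higher in each were MT-CO2, MT-ND3 and MT-CYB. Among the mRNAs, the 6 lower in each were MT-CO1, MT-ND1, MT-ND2, MT-ND4, MT-ND4L and MT-ND5. MT-CO1 was at 6851, 7051 and 7039 CPM in shSHCBP1_1 and 6797, 6909 and 6827 in shSHCBP1_2, all below NC (log2 -0.22 and -0.25, SE 0.03 and 0.03, adjusted p = 7.5e-07 and 3.7e-08). MT-CO2 was at 1196, 1148 and 1182 CPM in shSHCBP1_1 and 1283, 1246 and 1266 in shSHCBP1_2, all above NC (log2 0.14 and 0.25, SE 0.04 and 0.04, adjusted p = 0.00401 and 2.4e-06). The pair lay on opposite sides of the NC libraries, which these comparisons share with those of the shTMEM45A sets. MT-ND4L was at 388, 403 and 390.1 CPM in shSHCBP1_1 and 368, 379.8 and 388 in shSHCBP1_2, below every NC library (log2 -0.29 and -0.35, SE 0.07 and 0.07, adjusted p = 0.00196 and 0.00016). MT-ND3 beside it was at 216, 226 and 212 CPM in shSHCBP1_1 and 241, 214 and 242 in shSHCBP1_2, above every NC library (log2 0.16 and 0.25, SE 0.05 and 0.05, adjusted p = 0.0306 and 0.00044). MT-CYB was at 1106, 1127 and 1097 CPM in shSHCBP1_1 and 1220.1, 1249 and 1222 in shSHCBP1_2 (log2 0.13 and 0.28, SE 0.05 and 0.05, adjusted p = 0.0463 and 2.6e-05). These too lay above NC without overlap.

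MT-ND1 and MT-ND2, higher than NC in the shTMEM45A sets, were lower than NC here. MT-ND1 was at 2276, 2211 and 2262 CPM in shSHCBP1_1 and 2340.5, 2372 and 2354 in shSHCBP1_2, below NC (log2 -0.26 and -0.20, SE 0.04 and 0.04, adjusted p = 7.7e-06 and 0.00017). MT-ND2 fell by log2 -0.15 and -0.11 (adjusted p = 0.00375 and 0.0179), MT-ND4 by -0.16 and -0.18, and MT-ND5 by -0.24 and -0.24. In the main fit, the mRNAs that did not pass in either group were MT-ATP6 (-0.04 and 0.00), MT-ATP8 (0.12 and 0.19), MT-CO3 (0.03 and 0.08) and MT-ND6 (-0.04 and -0.01). MT-RNR2 was lower in both, at 5794, 5864 and 5718 CPM in shSHCBP1_1 and 5557, 5766 and 5514 in shSHCBP1_2 (log2 -0.15 and -0.19, SE 0.04 and 0.04, adjusted p = 0.00431 and 0.00014). MT-RNR1 was lower in shSHCBP1_2 (1305, 1353 and 1289 CPM, log2 -0.22, SE 0.04, adjusted p = 5.1e-05) and missed the threshold in shSHCBP1_1 (1453, 1433 and 1402 CPM, log2 -0.10, SE 0.04, adjusted p = 0.0608). In shSHCBP1_1 it did pass, as lower, with RLE factors (adjusted p = 0.00264) and in DESeq2 (adjusted p = 0.0016). The same held with only the 2 groups in the fit (adjusted p = 0.00705) or only the table with NC (adjusted p = 0.00185). The counts of MT-RNR2 relative to MT-RNR1 were 4.05 ± 0.0577 and 4.27 ± 0.0107, against 4.18 ± 0.0729 in NC. Of the 14 tRNA rows tested, MT-TL1 and MT-TP passed, both lower. MT-TP was at 61.05, 58.7 and 58.3 CPM in shSHCBP1_1 and 51.8, 61.5 and 56.5 in shSHCBP1_2 (log2 -0.40 and -0.46, SE 0.07 and 0.07, adjusted p = 8.3e-05 and 4.2e-06), and MT-TL1 at 34.7, 34.5 and 38.7 CPM in shSHCBP1_1 and 34.2, 35.8 and 36.7 in shSHCBP1_2 (log2 -0.28 and -0.29, SE 0.08 and 0.08, adjusted p = 0.019 and 0.00825). Neither overlapped NC.

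Several of these small differences did not hold under other settings, beside the call that MT-RNR1 gained in shSHCBP1_1. With RLE factors or DESeq2, none of the 3 rises in shSHCBP1_1 passed. The call of MT-CYB there was lost on leaving out any 1 of the 6 libraries compared (adjusted p from 0.0826 to 0.146). Those of MT-ND3 and MT-TL1 in shSHCBP1_1 were lost on leaving out NC library 2 or 3 or shSHCBP1_1 library 1 or 2 (adjusted p from 0.0667 to 0.141 for MT-ND3 and from 0.0592 to 0.0925 for MT-TL1). That of MT-ND2 in shSHCBP1_2 was lost on leaving out NC library 2 or shSHCBP1_2 library 1 (adjusted p from 0.0710 to 0.0840). With plain total counts, which put the median of all genes at 0.15 and 0.17 (log2) in these groups, 4 and 8 transcripts were higher and 3 lower in each, the lower in place of 9 and 10, and MT-ND2 and MT-ND6 in shSHCBP1_2 changed sign. MT-CO1 and MT-TP in both groups, MT-ND1 in shSHCBP1_1, and MT-CO2, MT-ND3, MT-CYB and MT-ND4L in shSHCBP1_2 passed under every alternative run. Some rows gained a call, all upward. MT-CO3 in shSHCBP1_2 passed with total counts, a minimum count of 50, only the 2 groups, only the table with NC, or without NC library 2 (adjusted p from 3.3e-06 to 0.0479). With total counts MT-CO3 in shSHCBP1_1 and MT-ATP6 in shSHCBP1_2 passed (adjusted p = 0.000515 and 0.00691). MT-TC and MT-TR in shSHCBP1_2 passed under some settings.

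The make-up of the mitochondrial mRNA pool, being a share within each library, does not depend on scaling. In NC, MT-CO1 held 30.3% ± 0.0475 of the counts on the 13 mRNAs and MT-ND4 20.97% ± 0.0682. In set 4 these were 23.2% ± 1.59 and 9.44% ± 0.415, and in set 2 20.98% ± 0.143 and 8.78% ± 0.519. MT-CO2 held 3.95% ± 0.0224 in NC, 15.7% ± 0.206 in set 4 and 16.5% ± 0.718 in set 2. For MT-CO3 the values were 4.897% ± 0.148, 12.9% ± 0.128 and 13.4% ± 0.388. Both of these oxidase mRNAs thus made up more of the pool, and MT-CO1 and MT-ND4 less. MT-ND3 went from 0.725% ± 0.0233 to 4.296% ± 0.137 and 4.28% ± 0.206, while MT-ND4L went from 1.79% ± 0.0661 to 0.386% ± 0.0180 and 0.396% ± 0.0656 and MT-ND5 from 8.41% ± 0.111 to 3.02% ± 0.0490 and 2.96% ± 0.217. In each shTMEM45A set 8 mRNAs had a share above that of every NC library and 5 a share below, with no overlap, beside 76.1% and 74.9% of all genes tested whose scaled levels did not overlap NC. In shSHCBP1_1 6 shares lay above NC, 4 below and 3 overlapped, and in shSHCBP1_2 6, 5 and 2, where the levels of 41.5% and 50.2% of all genes did not overlap NC. There MT-CO1 held 28.8% ± 0.433 and 27.9% ± 0.0727, MT-CO2 4.84% ± 0.116 and 5.15% ± 0.132, and MT-CYB 4.57% ± 0.0474 and 5.01% ± 0.0175, against 3.77% ± 0.0645 in NC. MT-ND6, whose level did not pass in these groups, also had shares above NC in both, at 4.23% ± 0.0961 and 4.27% ± 0.141 against 3.93% ± 0.113. Shares sum to a whole, so a share can rise when others fall.

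**Figure D4:**
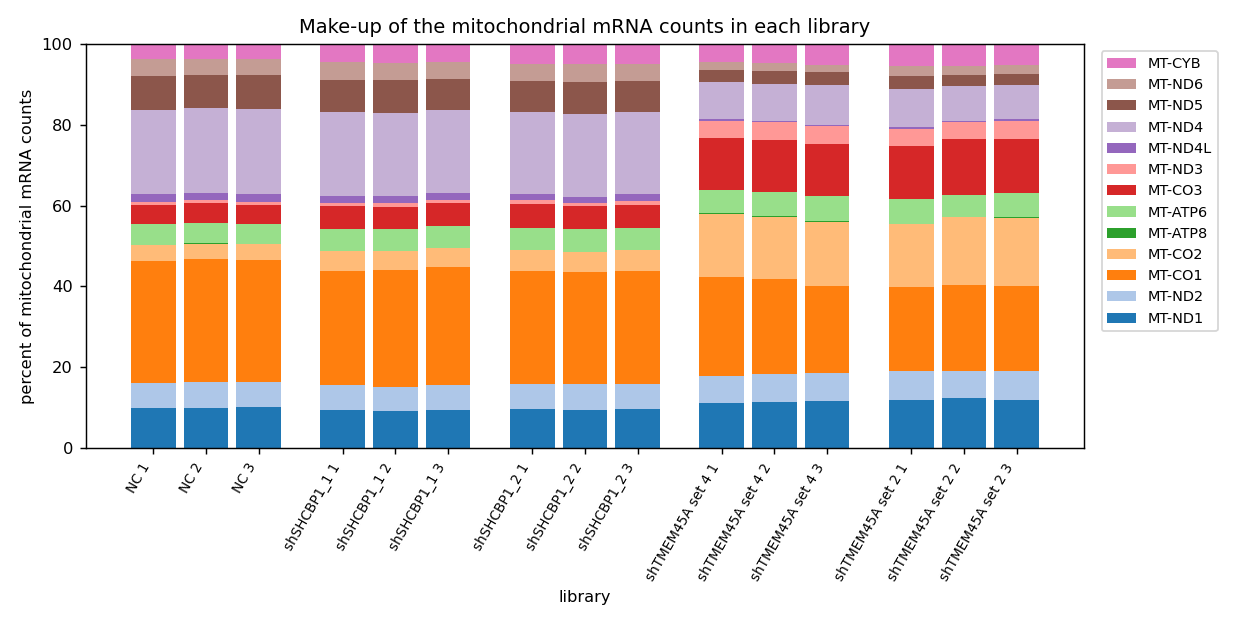
Percent of mitochondrial mRNA counts (vertical axis, 0 to 100) that each of the 13 mRNAs held in each of the 15 libraries, stacked in genome order. In the 6 shTMEM45A libraries the bands of MT-CO2, MT-CO3 and MT-ND3 are wider than in NC and those of MT-CO1, MT-ND4 and MT-ND5 narrower.

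Ratios of counts between neighbouring genes also differed between groups. MT-ND4L to MT-ND4, read from one mRNA, was 0.0854 ± 0.00287 in NC, 0.0782 ± 0.00162 and 0.0759 ± 0.00210 in the shSHCBP1 groups, 0.0410 ± 0.00354 in set 4 and 0.0449 ± 0.00467 in set 2. MT-ATP8 to MT-ATP6, the other shared mRNA, was 0.00484 ± 0.000670 in NC, 0.00541 ± 0.00126 and 0.00550 ± 0.00104 in the shSHCBP1 groups, 0.00970 ± 0.00119 in set 4 and 0.0104 ± 0.00174 in set 2. The ratios of genes on a shared mRNA were thus not constant across the tables either, and each depends on how reads in the overlaps were counted, which is not given in the sources used here. MT-ND6 to MT-ND5, facing genes on opposite strands, was 0.468 ± 0.0181 in NC, 0.537 ± 0.0203 and 0.549 ± 0.00819 in the shSHCBP1 groups, 0.651 ± 0.0285 in set 4 and 0.780 ± 0.0331 in set 2. MT-CO3 to MT-ATP6 just before it, chosen after the values were seen, was 0.977 ± 0.0291 in NC, 1.03 ± 0.0240 and 1.03 ± 0.0570 in the shSHCBP1 groups, 2.16 ± 0.139 in set 4 and 2.27 ± 0.182 in set 2.

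Hairpins labelled for one target could be compared within a single table. Set 2 exceeded set 4 in 16 of 29 transcripts and was lower in none, where 5.27% of all genes passed (1.95% higher, 3.32% lower). The 10 mRNAs among them had small differences, led by MT-ND6 (log2 0.44, SE 0.05, adjusted p = 2.5e-06), MT-CYB (0.37, SE 0.05, adjusted p = 4.2e-06), MT-ND1 (0.29, SE 0.04, adjusted p = 1.3e-05), MT-CO2 (0.28, SE 0.04, adjusted p = 6.3e-06), MT-CO3 (0.26, SE 0.03, adjusted p = 1.5e-05) and MT-ND2 (0.24, SE 0.04, adjusted p = 8.6e-05). MT-CO1 (0.07), MT-ND4 (0.10) and MT-ATP8 (0.30) did not pass. MT-RNR1 rose (0.19, SE 0.04, adjusted p = 0.00322), and MT-RNR2 did not pass (0.07, SE 0.04, adjusted p = 0.31). The tRNA rows that passed were MT-TC (0.45), MT-TN (0.58), MT-TP (0.50), MT-TL1 (0.52) and MT-TH (1.17). Set 2 was thus higher in transcripts that were above NC and in transcripts that were below it. The make-up of the mRNA pool differed less: MT-ND1, MT-ND6 and MT-CYB had shares above every library of set 4, MT-CO1 a share below, and 9 shares overlapped, beside 16.2% of all genes whose levels did not overlap. With only these 2 groups in the fit, 10 transcripts passed, and MT-ATP6, MT-ND3, MT-ND4L, MT-ND5, MT-RNR1 and MT-TL1 did not. Leaving out the library in column 1 of set 4 ended the call of MT-ND3 (adjusted p = 0.117), and leaving out column 1 or 2 of set 4 or library 1 of set 2 ended those of MT-ATP6 and MT-ND5 (adjusted p from 0.0836 to 0.168 and from 0.0880 to 0.181). The call of MT-ND4L was lost without any 1 library of set 4 or without library 1 of set 2 (adjusted p from 0.0834 to 0.317). The calls of MT-TL1 and MT-TH were lost without column 2 or 3 of set 4, that of MT-TL1 also without library 2 of set 2 and that of MT-TH also without library 1 (adjusted p from 0.0582 to 0.128 and from 0.0600 to 0.0936). MT-TH did not pass in DESeq2 either (adjusted p = 0.0995).

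Between shSHCBP1_2 and shSHCBP1_1 none of 29 passed in edgeR, nor any of the 18 that DESeq2 gave an adjusted p, where 0.835% of all genes passed in edgeR (0.499% higher, 0.336% lower). At an unadjusted p under 0.05 there were 3: MT-CYB (log2 0.15, SE 0.05, adjusted p = 0.146), MT-CO2 (0.11, SE 0.04, adjusted p = 0.184) and MT-RNR1 (-0.12, SE 0.04, adjusted p = 0.174). In a fit of these 2 groups alone 3 transcripts were higher and 1 lower.

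Nuclear copies of mitochondrial genes share sequence with the transcripts above, and how the counting split such reads is not known. The tables held 407 rows named as such copies, whose counts came to 0.52 to 0.62% of the mitochondrial counts per library in the table with NC and 0.34 to 0.52% in the other. In the table with NC, 45 to 56 of these rows had a count in a library, against 14 to 21 in the shTMEM45A table. The 3 copies with the highest mean count did not move alike. MTND2P28 had 1356, 1355 and 1130 counts in NC, 191, 186 and 212 in set 4 and 184, 147 and 162 in set 2 (log2 -2.64 and -2.91, SE 0.10 and 0.10, adjusted p = 6.5e-21 and 9.2e-22), opposite to MT-ND2. MTATP6P1 had 1078, 1064 and 1057 counts in NC, 1395, 1486 and 2083 in set 4 and 1813, 1676 and 1499 in set 2 (log2 0.71 and 0.69, SE 0.11 and 0.11, adjusted p = 8.2e-07 and 1.2e-06), in the direction of MT-ATP6. MTCO1P12 went from 22.1 ± 0.822 CPM to 18.5 ± 5.72 and 16.2 ± 3.35 (log2 -0.26 and -0.45, SE 0.15 and 0.15, adjusted p = 0.127 and 0.0102), and its call in set 2 was lost without library 1 of that set (adjusted p = 0.0921). The part of read assignment in the differences between tables was not tested.

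The nuclear genes that serve these transcripts were described from lists: those for mitochondrial transcription, RNA processing and modification, RNA stability and decay, DNA replication, and nuclear regulation. Their counts of calls are to be read against the shares of all genes given above for each comparison. POLRMT, the mitochondrial RNA polymerase, was at 206 ± 9.502 CPM in NC, 185 ± 2.86 in set 4 and 194 ± 11.6 in set 2, with log2 differences of -0.16 and -0.09 (SE 0.05 and 0.05, adjusted p = 0.00556 and 0.104), and -0.02 and 0.03 in the shSHCBP1 groups. Its call in set 4 was lost with upper-quartile scaling (adjusted p = 0.0834). TFAM, which packs mitochondrial DNA and opens its promoters, differed by log2 0.14 and 0.11 in the shTMEM45A sets, neither past the threshold, and rose in shSHCBP1_2 (0.27, SE 0.08, adjusted p = 0.00928), with 0.09 (SE 0.08, adjusted p = 0.486) in shSHCBP1_1. That call of TFAM was lost without NC library 3 or shSHCBP1_2 library 1 (adjusted p from 0.0535 to 0.0997), with RLE scaling (adjusted p = 0.0641) and in DESeq2 (adjusted p = 0.0739). The pair that binds and stabilises mitochondrial mRNAs came apart. LRPPRC fell from the NC level of 313 ± 1.16 CPM to 163 ± 8.42 (set 4) and 162 ± 16.6 (set 2), by log2 -0.94 and -0.95 (SE 0.06 and 0.06, adjusted p = 9.9e-16 and 7.7e-16), and to 240.2 ± 5.92 and 240.0 ± 2.26 in the shSHCBP1 groups (log2 -0.38 and -0.38, SE 0.05 and 0.05, adjusted p = 5.5e-06 and 2.1e-06). Its partner SLIRP rose from 72.7 ± 4.03 CPM to 288 ± 17.1 and 320.0 ± 20.04 (log2 1.99 and 2.14, SE 0.06 and 0.06, adjusted p = 5.6e-23 and 7.7e-24) and did not pass in the shSHCBP1 groups (adjusted p = 0.995 and 0.466).

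Of the 11 transcription genes tested, 2 were higher and 0 lower in shSHCBP1_1, 4 and 0 in shSHCBP1_2, 8 and 2 in set 4, and 8 and 1 in set 2, with median log2 differences of 0.11, 0.25, 0.44 and 0.44. The naming rule took genes called the same way in both groups of a target, and largest below means by their mean log2 difference. C6orf203 (MTRES1, a factor that protects mitochondrial transcription under stress) had the largest rise for both targets. Its log2 differences were 0.70 and 0.91 in the shSHCBP1 groups and 2.23 and 2.29 in sets 4 and 2. In the shSHCBP1 groups it was the only shared rise. TEFM, the elongation factor, was the only shared fall in the shTMEM45A sets (-0.46 and -0.44). Both calls of TEFM were lost without NC library 2 (adjusted p = 0.0567 and 0.0681). Of the 25 processing and modification genes tested, 6 were higher and 2 lower in shSHCBP1_1, 8 and 1 in shSHCBP1_2, 12 and 6 in set 4, and 13 and 6 in set 2, with median log2 differences of 0.10, 0.07, 0.26 and 0.21. MRM1 and MRM3, methyltransferases of the large rRNA, led the rises in the shSHCBP1 groups (MRM1, 0.97 and 1.39) and in the shTMEM45A sets (MRM3, 2.40 and 2.46). TRMT61B, a tRNA methyltransferase, had the largest fall in the shTMEM45A sets (-1.84 and -1.88), and GTPBP3, a tRNA-modifying GTPase, the only shared fall in the shSHCBP1 groups (-0.21 and -0.19), lost with plain total counts in both (adjusted p = 0.382 and 0.765). Of the 18 stability and decay genes tested, 2 were higher and 1 lower in shSHCBP1_1, 6 and 2 in shSHCBP1_2, 10 and 4 in set 4, and 9 and 3 in set 2, with median log2 differences of 0.03, 0.04, 0.27 and 0.29. DDX28, a helicase of mitochondrial ribosome assembly, had the largest rise for both targets (log2 0.85 and 1.03 in the shSHCBP1 groups, 3.09 and 3.20 in sets 4 and 2). PTCD3, a protein of the small mitochondrial ribosomal subunit, had the largest mean fall over both shTMEM45A sets (-0.88 and -1.12). LRPPRC was the only shared fall in the shSHCBP1 groups. Of the 10 DNA replication genes tested, 3 were higher and 4 lower in shSHCBP1_1, 2 and 5 in shSHCBP1_2, 5 and 4 in set 4, and 6 and 4 in set 2, with median log2 differences of -0.11, -0.18, 0.20 and 0.17. PRIMPOL, a primase-polymerase, had the largest rise for both targets (log2 0.58 and 0.57 in the shSHCBP1 groups, 1.53 and 1.72 in sets 4 and 2). POLG, the catalytic subunit of the mitochondrial DNA polymerase, had the largest fall in the shTMEM45A sets (-1.90 and -2.28). Its accessory subunit POLG2 had the largest fall in the shSHCBP1 groups (-0.31 and -0.45). POLG2 lost its call in shSHCBP1_1 without NC library 2 or 3 or shSHCBP1_1 library 2 or 3 (adjusted p from 0.0586 to 0.103) and with total counts (adjusted p = 0.199). Of the 10 nuclear regulators tested, 2 were higher and 1 lower in shSHCBP1_1, 4 and 0 in shSHCBP1_2, 5 and 4 in set 4, and 5 and 3 in set 2, with median log2 differences of 0.06, 0.21, 0.31 and 0.13. PPARGC1A, a coactivator of mitochondrial biogenesis, had the largest rise for both targets (log2 1.08 and 1.14 in the shSHCBP1 groups, 0.91 and 1.22 in sets 4 and 2). TFE3, a lysosomal and metabolic transcription factor, had the largest fall in the shTMEM45A sets (-0.74 and -0.86). PPARGC1A lost its call in shSHCBP1_1 without NC library 1 or shSHCBP1_1 library 2 (adjusted p from 0.0559 to 0.0680).

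The nuclear mRNAs for subunits of the same complexes mostly rose in the shTMEM45A sets, where the mitochondrial mRNAs split. Over all genes, 35.6% were higher and 38.9% lower in set 4, 36.1% and 39.8% in set 2, 9.34% and 10.5% in shSHCBP1_1, and 15.6% and 15.4% in shSHCBP1_2. For complex I, 31 of 37 nuclear subunits were higher and 4 lower in set 4, and 31 and 4 in set 2 (median log2 1.48 and 1.59), against 2 and 7 in shSHCBP1_1 and 2 and 15 in shSHCBP1_2 (median -0.11 and -0.16). For complex III, 8 of 9 nuclear subunits were higher and 1 lower in set 4, and 8 and 1 in set 2 (median log2 1.17 and 1.24), against 0 and 4 in shSHCBP1_1 and 1 and 5 in shSHCBP1_2 (median -0.13 and -0.29). For complex IV, 11 of 11 nuclear subunits were higher and 0 lower in set 4, and 11 and 0 in set 2 (median log2 1.51 and 1.51), against 0 and 8 in shSHCBP1_1 and 0 and 9 in shSHCBP1_2 (median -0.17 and -0.24). For complex V, 15 of 17 nuclear subunits were higher and 2 lower in set 4, and 15 and 2 in set 2 (median log2 1.39 and 1.46), against 0 and 6 in shSHCBP1_1 and 0 and 11 in shSHCBP1_2 (median -0.13 and -0.21). The leading nuclear genes in the shTMEM45A sets were NDUFB1 (complex I, from 18.9 ± 0.406 CPM to 140.4 ± 22.8 and 131 ± 7.72, log2 2.89 and 2.80), UQCRQ (complex III, 1.96 and 2.08), COX5B (complex IV, 1.91 and 1.94) and ATP5F1E (complex V, 2.53 and 2.61). The largest falls there were NDUFV2, a subunit of the NADH-binding module (-2.14 and -2.10), UQCRC2 (-0.29 and -0.44) and ATP5F1B, the catalytic beta subunit (-0.59 and -0.65). In the libraries labelled shSHCBP1 the nuclear subunits that passed were mostly lower. Among those called lower in both groups, the largest mean falls by complex were NDUFV1 (-0.30 and -0.36), UQCRC1 (-0.35 and -0.45), COX7A2 (-0.27 and -0.33) and ATP5F1B (-0.38 and -0.48). NDUFV2 of complex I fell further, by -0.61 in shSHCBP1_1 (adjusted p = 0.0588, not called) and -0.74 in shSHCBP1_2 (adjusted p = 0.0148). That call was lost with total counts and without NC library 2 or shSHCBP1_2 library 2 (adjusted p from 0.0527 to 0.0845). The call of COX7A2 in shSHCBP1_1 was lost with total counts (adjusted p = 0.115). NDUFV3 of complex I had the largest rise called in both groups (0.20 and 0.24, adjusted p = 0.0165 and 0.00283). Its call in shSHCBP1_1 was lost with RLE scaling (adjusted p = 0.106) and in DESeq2 (adjusted p = 0.0955). It was also lost without NC library 2 or shSHCBP1_1 library 1 or 2 (adjusted p from 0.0592 to 0.0742).

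Summed over subunits, the complex I mRNAs of the mitochondrial genome came to 14009 ± 127 CPM in NC, 11295 ± 784 in set 4 and 13186 ± 588 in set 2, and the nuclear ones to 3114 ± 61.8, 8244 ± 179 and 8448 ± 254. The ratio of mitochondrial to nuclear sums was 4.5 ± 0.0883 in NC, 4.302 ± 0.0530 and 4.57 ± 0.0611 in the shSHCBP1 groups, 1.37 ± 0.0895 in set 4 and 1.56 ± 0.107 in set 2. For complex IV it was 5.44 ± 0.156 in NC, 5.53 ± 0.129 and 5.79 ± 0.0706 in the shSHCBP1 groups, 2.85 ± 0.0413 in set 4 and 3.18 ± 0.109 in set 2, although its mitochondrial sum was higher in both sets (15611 ± 244 and 17708 ± 359 CPM) than in NC (10530.0 ± 152 CPM). For complex III, whose mitochondrial part is MT-CYB, it was 0.568 ± 0.00413 in NC, 0.715 ± 0.0115 and 0.831 ± 0.0213 in the shSHCBP1 groups, 0.417 ± 0.0420 in set 4 and 0.543 ± 0.0293 in set 2. For complex V, with MT-ATP6 and MT-ATP8, it was 0.345 ± 0.00733, 0.398 ± 0.00997, 0.438 ± 0.0230, 0.295 ± 0.0257 and 0.334 ± 0.0194 in the same order. Relative to the nuclear sum the mitochondrial sum was thus lower than in NC for complexes I and IV in both shTMEM45A sets, and higher for complexes III and V in both shSHCBP1 groups. Sums of reads depend on the lengths of the genes added, so only their ratio between groups is read.

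**Figure D5:**
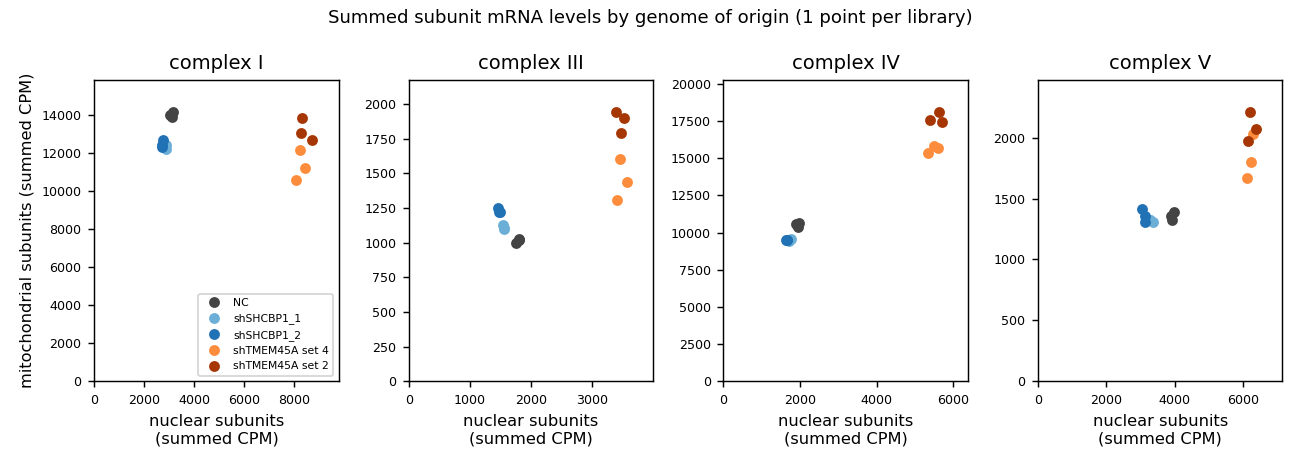
Summed level of the mitochondrial subunit mRNAs (vertical axes, TMM-scaled CPM) against that of the nuclear subunit mRNAs (horizontal axes, CPM) of complexes I, III, IV and V, 1 point per library, all axes from 0. The 6 shTMEM45A libraries lie far to the right of NC in all 4 panels, and below NC on the vertical axis only in complex I.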

How the data were processed

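The authors deposited 2 tables of raw counts per gene, 1 column per library. The unit follows from the values, whole numbers with a different total in each column. The aligner and counter stay unnamed, being not given in the sources used here. Of 58735 rows in each table, 1768 that share 200 names were left out, none of them a member. Column names were matched to the labels as the report says. The 15 libraries were fitted together in edgeR 4.0.16 (R 4.3.3): filterByExpr with a minimum count of 10 and a minimum total of 15 kept 19051 genes, libraries were scaled by TMM, group means were compared by the quasi-likelihood F test, and p-values were Benjamini-Hochberg adjusted over all 19051. The threshold was 0.05, and an SE is the log2 difference divided by the root of F. Levels are mean ± SD of CPM over 3 libraries; 3 counts are 0.165 to 0.229 CPM. TMM factors were 1.006 to 1.015 in NC, 1.112 to 1.133 in the shSHCBP1 groups and 0.877 to 0.896 in the shTMEM45A sets. The members and lists were chosen with earlier results of these data known. All 13 mRNAs, both rRNAs and the tested tRNAs are named; of each list, the genes with the largest rise and fall among those called the same way in both hairpin groups of a target, and POLRMT, TFAM, LRPPRC and SLIRP always. The test was tried on simulated data. Alternatives, with DESeq2 1.42.0 among them, are in the closing section; the fit of 1 table alone was added after seeing the data.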

Additional observations from a re-analysis of the deposited data

How the results depend on the processing

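The scaling, filter, test, libraries fitted and libraries kept were changed one at a time, except that DESeq2 brought its own scaling and filtering. Of the values of single mitochondrial transcripts, 2500 stayed on the same side of the threshold, 70 lost and 35 gained a call. Another 2 reversed, both with total counts in shSHCBP1_2: MT-ND2 at log2 0.050 and MT-ND6 at 0.152. Direction was compared only for values called in the main fit or the alternative. Changes of sign among values called in neither were not counted. Higher and lower calls in sets 4 and 2 against NC (16 and 11, 18 and 10) stayed within 1.5 times in every alternative run. MT-TF, MT-TS2, MT-TE and MT-TV, which passed the filter through a single table, are among the rows tested here, so these counts support nothing about them. In shSHCBP1_1 the 3 higher calls became 0 with RLE factors and 0 in DESeq2, and 1 to 2 on leaving out a library; the 9 lower became 3 with total counts. In shSHCBP1_2 the 3 higher became 8 with total counts, 6 with only the 2 groups in the fit and 6 with only the table with NC; the 10 lower became 3 with total counts. Between the shSHCBP1 groups, the 0 higher became 1 without a filter, 3 with only the 2 groups and 2 with 1 table, and the 0 lower became 1 with only the 2 groups and 1 with 1 table. Set 2 above set 4, 16 transcripts, became 10 with only the 2 groups and 10 with 1 table. Total counts moved the median of all genes to 0.15 and 0.17 in the shSHCBP1 groups and -0.22 and -0.23 in the shTMEM45A sets, and the split of all calls in shSHCBP1_1 from 1779 higher and 2008 lower to 4073 and 661 (1271 and 3091 with RLE), and in shSHCBP1_2 from 2980 and 2941 to 5547 and 1243 (2222 and 4193 with RLE). With the replicate number as a block (replicate block), 5 transcripts were higher in shSHCBP1_2 than in NC and 1 higher than in shSHCBP1_1. Same-numbered libraries did not deviate together (correlations of -0.035 to 0.038 over 18 pairs, and -0.045 to 0.033 over the other 36), so the numbers were not taken as pairs; set 4 had no numbers to block on. The cause of these changes was not tested. The filter left out 8 of the 22 tRNA rows; without it, MT-TK was called higher in sets 4 and 2 and MT-TI in set 2, and no other of the 8 passed in any comparison.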

Other observations

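The library in column 3 of set 4 stood apart in some of the tRNA rows of low count. MT-TT had 79, 33 and 5 counts in the 3 libraries of set 4, MT-TS2 21, 23 and 3, MT-TG 27, 24 and 4 and MT-TH 126, 63 and 27. In the deeper rows MT-TC and MT-TN the same library was at 138 and 56.4 CPM, below both others of its set and above every NC library. Its mitochondrial mRNA share, by contrast, was the highest of the set. MT-TF (15, 16 and 12 counts in set 4) and MT-TE (7, 0 and 3) did not set this library apart. In MT-TS2, library 3 of set 2 was also the lowest of its set (30, 27 and 8).

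Among the 8 tRNA rows under the filter on low counts, the isoleucine and lysine tRNAs had most of their counts in set 2. MT-TI summed to 2 counts over the NC libraries, 3 and 5 over the shSHCBP1 groups, 6 over set 4 and 43 over set 2. MT-TK summed to 1, 11, 11, 19 and 46 in the same order. The serine tRNA MT-TS1 summed to 3, 16, 10, 0 and 8. MT-TW, the tryptophan tRNA, had a count only in the shSHCBP1 groups (6 and 7) and 0 in each of the other 9 libraries, where 0 counts allow up to 0.229 CPM. These rows were chosen after their values were seen. In the fit without a filter MT-TK was called higher than NC in set 4 (edgeR adjusted p = 0.00176) and set 2 (2.5e-06) and MT-TI in set 2 (0.00018), on too few counts for a fold.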
